A study of Mus musculus with 12 samples.

Results

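Bone morphogenetic proteins (BMPs) are secreted ligands of the TGF-beta family. A BMP dimer joins type I and type II serine/threonine kinase receptors, which phosphorylate Smad1, Smad5 and Smad9. These enter the nucleus with Smad4 and raise a short list of direct targets, among them the Id genes and the inhibitory Smads. Id proteins are helix-loop-helix factors without a DNA-binding region that hold back differentiation, and Smad6 feeds back to block the receptors. In stratified epithelium BMP6 is known as a ligand of the differentiating layers.

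The 10 genes described here are 4 BMP ligands (Bmp2, Bmp4, Bmp6, Bmp7), 2 receptors (Bmpr1a, Bmpr2), 3 Id genes (Id1, Id2, Id3) and Smad6, of 23102 genes measured. The list was chosen by the measured group difference of Bmp6, to see whether its lower level went with a changed level of the Id genes and Smad6. The difference of Bmp6 is therefore given as a description, without a test. The other 9 were tested in a fit of all genes.

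Total RNA came from oral tumours of C57BL/6 x FVB F1 mice given tamoxifen by intraperitoneal injection, with 1 Affymetrix Mouse Gene 2.0 ST array, read at exon level, for each tumour. The 6 KHR tumours expressed RAS and the transgene iHPV, for which the labels name HPV E6. The 6 KR tumours expressed RAS alone. All 12 tumours thus share RAS and tamoxifen. The labels used here spell out neither the letters of KHR and KR, nor the promoter or Cre behind the transgenes, nor sex or age. They also do not tie each tumour to an animal of its own, and p-values therefore cover only the spread among these tumours, which may in part be technical.

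Values are log2 intensities, where 1 unit is a doubling, and a gene's value on an array is the median of its probesets, the short exon-level probe groups of the array. Array medians lay between 5.62 and 5.75, and the median level of all genes was 4.98. Precision is limited by having 6 arrays per group. Keratinocyte markers were bright in every tumour, and the mean of 8 was 11.76 ± 0.13 in KHR tumours and 11.66 ± 0.08 in KR tumours (SD, n = 6 each). Xist was above a log2 level of 8 on 4 of 6 KHR arrays and 2 of 6 KR arrays. In whole tumours, fewer cells of a type and less RNA per cell cannot be told apart.

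The promoters of 3 targets and of Bmp6 are shown with their matches to known Smad motifs, and what Smads do at these sites was not tested. RefSeq (GRCm38.p6) held 7 of the 10 members in the promoter table used here, but not Bmp2, Bmp7 or Id1. Each window of 300 bases runs from 250 bases before the transcription start to 50 after it. Capitals mark matches on either strand to 3 known Smad motifs: the palindrome GTCTAGAC, the GC-rich site GGCGCC and the Smad box CAGAC, which reads GTCTG when it lies on the other strand. Smad6 lies at chr9:64022010-64022309 on the minus strand, Id2 at chr12:25096043-25096342 on the minus strand, Id3 at chr4:136143572-136143871 on the plus strand and Bmp6 at chr13:38345466-38345765 on the plus strand.
Smad6: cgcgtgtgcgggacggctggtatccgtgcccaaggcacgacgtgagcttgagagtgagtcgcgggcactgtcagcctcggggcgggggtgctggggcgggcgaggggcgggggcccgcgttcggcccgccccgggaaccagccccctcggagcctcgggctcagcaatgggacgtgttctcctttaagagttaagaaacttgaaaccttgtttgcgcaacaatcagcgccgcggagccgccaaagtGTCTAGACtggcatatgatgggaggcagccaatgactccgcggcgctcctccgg
Id2: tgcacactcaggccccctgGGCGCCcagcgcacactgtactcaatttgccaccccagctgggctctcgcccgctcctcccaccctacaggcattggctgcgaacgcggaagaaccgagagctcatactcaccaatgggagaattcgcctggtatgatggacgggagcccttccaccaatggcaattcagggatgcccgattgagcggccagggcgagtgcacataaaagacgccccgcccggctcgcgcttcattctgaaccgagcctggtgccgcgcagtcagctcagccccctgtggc
Id3: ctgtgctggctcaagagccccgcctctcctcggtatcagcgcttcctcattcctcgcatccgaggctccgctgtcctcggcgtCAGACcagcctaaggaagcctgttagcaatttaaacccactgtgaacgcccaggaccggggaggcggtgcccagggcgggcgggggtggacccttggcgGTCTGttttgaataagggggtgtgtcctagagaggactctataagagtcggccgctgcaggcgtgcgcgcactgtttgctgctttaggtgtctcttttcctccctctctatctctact
Bmp6: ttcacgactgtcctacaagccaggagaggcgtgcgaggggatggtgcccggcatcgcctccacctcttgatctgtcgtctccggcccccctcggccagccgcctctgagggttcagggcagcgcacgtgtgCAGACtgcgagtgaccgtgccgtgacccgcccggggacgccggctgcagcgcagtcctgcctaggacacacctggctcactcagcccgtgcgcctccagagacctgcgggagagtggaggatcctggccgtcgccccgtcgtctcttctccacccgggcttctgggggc

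The Smad6 window held the whole palindrome GTCTAGAC, its first base 4 bases before the start used for that window. The gene's own span reaches further upstream on this minus strand, to 64022085, and by that span the palindrome lies inside the gene. Of 32851 promoter windows in the table, 0.213% hold it. Id2 held the GC-rich site GGCGCC once, as do 11.9% of windows. Id3 held the Smad box CAGAC 2 times and Bmp6 held it once, a match found in 49.6% of windows and so of little information. A match is a description of the letters, not evidence of binding.

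Bmp6, a ligand of differentiating keratinocytes and in the liver the regulator of the iron hormone gene Hamp, ran at a lower level in KHR tumours. Its lowest, median and highest values were 6.35, 6.76 and 7.17 in KHR tumours, against 7.81, 8.16 and 8.63 in KR tumours. Every KHR tumour lay below every KR tumour. The means were 6.78 ± 0.31 in KHR tumours and 8.19 ± 0.30 in KR tumours (SD, n = 6 each), a log2 difference of -1.41 ± 0.16 (SE), or 0.377 of the KR level. Groups without overlap were seen for 2.67% of all genes. Since this contrast drew attention to Bmp6, nothing is read from that share.

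The lower level ran along the whole gene. All 12 probesets of Bmp6 were lower in KHR tumours, with log2 differences between -2.15 and -0.44, and for 10 of them the groups did not overlap. The share of all probesets without overlap was not counted. These probesets measure 1 gene on the same 12 arrays, so the counts repeat the difference that chose the list. The plot of probeset changes shows these points below 0 at every signal level. Those of Id1, Id2 and Smad6 lie on both sides of 0, and those of Id3 between -0.40 and -0.0028. Over 25 alternative settings the gene's difference lay between -1.51 and -1.32. The value of -1.51 came from the probesets above the median level, some of which met that filter only through KR and had to differ. Some of these alter only the error estimate, the blocking or the set of genes and cannot move it, and 12 leave out 1 array. The range describes the value that chose the list and is no test of it.

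**Figure D1:**
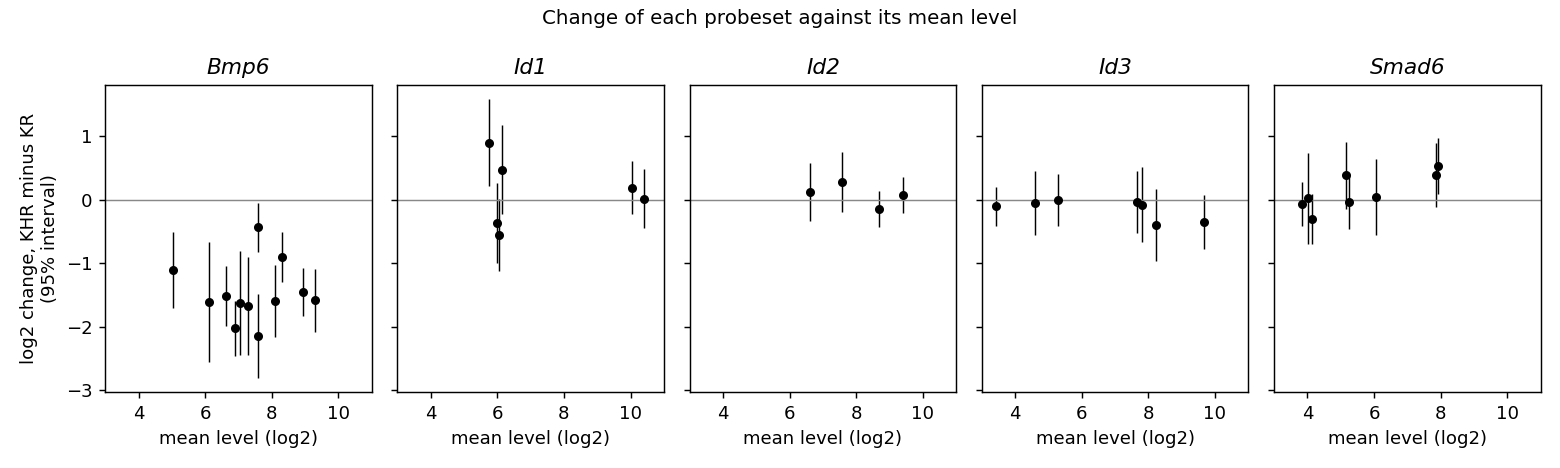
Log2 change (KHR minus KR, 95% interval) of each probeset on the y axis against its mean log2 level over the 12 arrays on the x axis, for Bmp6, Id1, Id2, Id3 and Smad6. All 12 Bmp6 probesets lie below 0, between -2.15 and -0.44, while the probesets of Id1, Id2 and Smad6 lie on both sides of 0 and those of Id3 between -0.40 and 0.

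Markers of differentiating keratinocytes moved with Bmp6 in part. The mean of 8 suprabasal markers spanned 11.73 to 12.55 in KHR tumours and 12.14 to 12.56 in KR tumours, so the groups overlapped. Of these 8, the oral suprabasal keratin Krt13 and the cornified envelope gene Lor fell (log2 changes -1.26 ± 0.22 and -0.36 ± 0.09, adjusted p = 0.00571 and 0.0373, limma). The envelope gene Ivl rose by 1.59 ± 0.30 (adjusted p = 0.00960). Of all genes, 3.74% passed in either direction. Krt4 had the largest difference of the list, -1.74 ± 0.72, but did not pass (adjusted p = 0.240, limma). Short of the threshold, Krt1, Krt10 and Sprr1a had a negative sign and Krtdap a positive one. With the mean of the suprabasal list as a covariate, added after seeing the data, the Bmp6 difference was -1.36. The mean of 12 skeletal muscle markers was 6.58 ± 0.76 in KHR tumours and 6.06 ± 0.44 in KR tumours (SD, n = 6 each). The groups overlapped (5.62 to 7.78 and 5.51 to 6.54), 0 of the 12 passed, and with that mean as a covariate the Bmp6 difference was -1.35. With the Xist level as a covariate it was -1.45. These adjusted values reuse the contrast that chose the list, and the suprabasal mean averages markers of opposite sign. Whether any of these markers accounts for the Bmp6 difference was not tested.

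The Id genes, the classical direct targets of BMP Smads, did not pass the test. Id1, a helix-loop-helix inhibitor of differentiation, had a lowest, median and highest value of 5.55, 6.37 and 7.03 in KHR tumours, against 5.89, 6.32 and 7.06 in KR tumours. The groups covered nearly the same range. The log2 difference was -0.04 ± 0.24 (SE, n = 6 each; adjusted p = 0.971, limma), with a 95% interval from -0.56 to 0.49. On a linear scale this interval runs from 0.679 to 1.40 of the KR level.

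The sign for Id1 changed under several alternatives. Its 6 probesets differed by -0.56 to 0.90, and the 2 bright ones, near a level of 10, by 0.02 and 0.18. When probesets were averaged, the gene's difference was 0.11 (adjusted p = 0.836).

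Id2, of the same family and a partner of Rb proteins, spanned 7.88, 8.23 and 8.41 (lowest, median, highest) in KHR tumours and 7.85, 8.11 and 8.29 in KR tumours. Both groups again overlapped over most of their range. The difference was 0.06 ± 0.12 (SE; adjusted p = 0.875) with a 95% interval from -0.19 to 0.32, the narrowest of the 3 Id genes. Id3 spanned 6.99, 7.63 and 7.86 in KHR tumours and 7.18, 7.56 and 8.36 in KR tumours. Its difference was -0.13 ± 0.21 (adjusted p = 0.846; 95% interval -0.58 to 0.33). All 7 Id3 probesets had a negative sign, between -0.40 and -0.0028, and none passed, against 1.02% of all probesets.

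Smad6, the inhibitory Smad whose printed window carries the palindrome shown above, spanned 4.78, 5.29 and 5.71 in KHR tumours and 4.91, 5.12 and 5.54 in KR tumours. The KR range lay within the KHR range. The log2 difference was 0.09 ± 0.16 (SE; adjusted p = 0.857; 95% interval -0.25 to 0.43), at a level close to the median of all genes. With only the 3 probesets above the median probeset level of 5.90, a setting added after seeing the data, the difference was 0.32 (adjusted p = 0.142). Its 2 brightest probesets differed by 0.39 and 0.52 and the 5 dim ones by -0.31 to 0.38, so the median over probesets gave a smaller value than the bright ones.

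**Figure D2:**
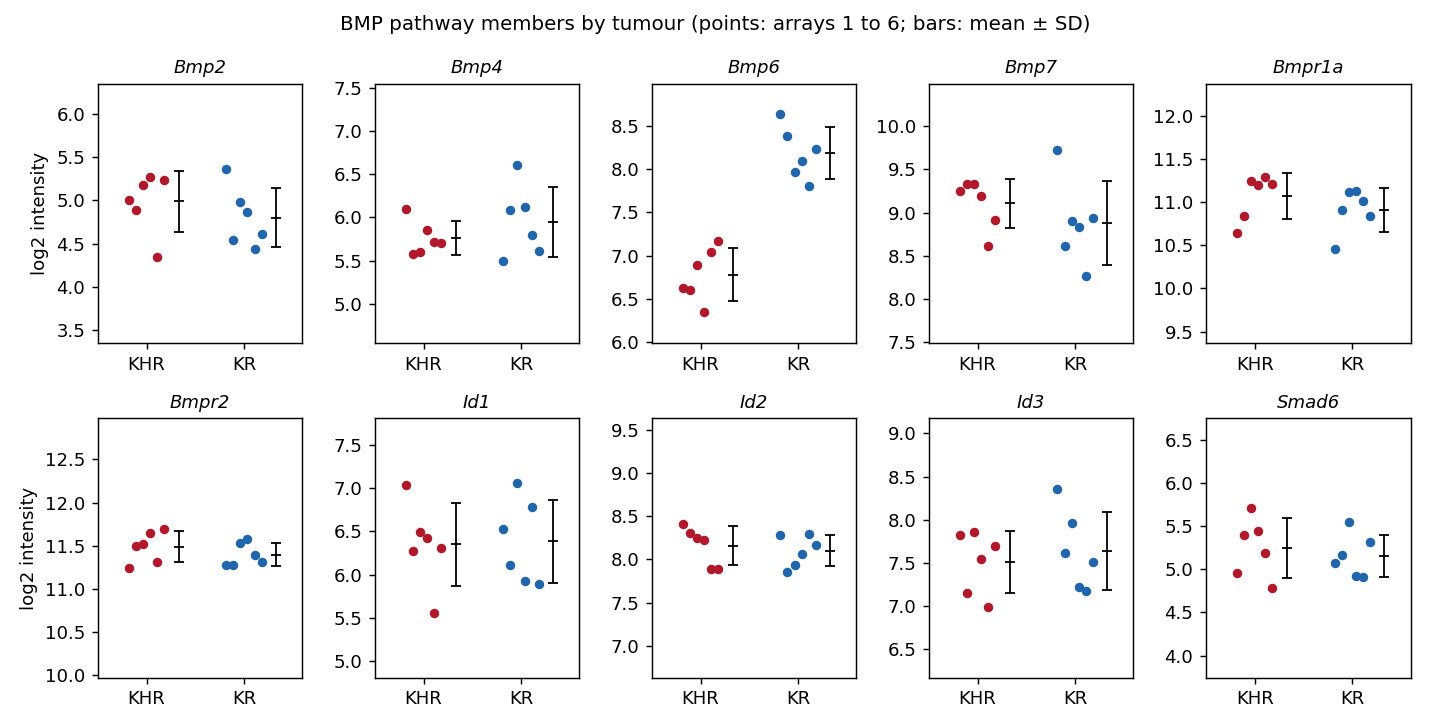
Log2 intensity of the 10 genes on each array, KHR tumours (red) left of KR tumours (blue), arrays 1 to 6 from left to right, with mean ± SD beside the points. Each panel spans 3 log2 units. Bmp6 is the panel without overlap (KHR at most 7.17, KR at least 7.81).

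The other ligands did not follow Bmp6. Bmp7, a ligand of the same subgroup as BMP6, spanned 8.62, 9.22 and 9.33 (lowest, median, highest) in KHR tumours and 8.26, 8.87 and 9.72 in KR tumours. It differed by 0.23 ± 0.20 (SE; adjusted p = 0.668; 95% interval -0.21 to 0.67). All 10 Bmp7 probesets were higher in KHR tumours, by 0.03 to 0.91. With the mean over probesets its difference was 0.44 (adjusted p = 0.0563), close to the threshold and in the opposite direction to Bmp6.

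Bmp2 and Bmp4 form the other subgroup of BMP ligands. Bmp2 spanned 4.34, 5.10 and 5.27 in KHR tumours and 4.43, 4.74 and 5.36 in KR tumours, near the median level of all genes. Bmp2 differed by 0.19 ± 0.18 (SE; adjusted p = 0.692; 95% interval -0.20 to 0.58), and by 0.01 with median polish. Bmp4 spanned 5.58, 5.71 and 6.10 in KHR tumours and 5.49, 5.94 and 6.61 in KR tumours. It differed by -0.19 ± 0.17 (adjusted p = 0.661; 95% interval -0.55 to 0.17), and by -0.35 with the probesets above the median level (adjusted p = 0.364). For both ligands the groups overlapped.

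The receptors stood at high signal. Bmpr1a, the type I receptor ALK3, spanned 10.64, 11.21 and 11.29 in KHR tumours and 10.45, 10.96 and 11.13 in KR tumours. Its difference was 0.16 ± 0.14 (SE; adjusted p = 0.661; 95% interval -0.14 to 0.47). Bmpr2, the type II receptor, spanned 11.25, 11.51 and 11.70 in KHR tumours and 11.27, 11.35 and 11.58 in KR tumours. Bmpr2 differed by 0.09 ± 0.10 (adjusted p = 0.731; 95% interval -0.12 to 0.31), the narrowest interval of the 10 genes.

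Read together, none of the 9 genes tested passed, against 3.74% of all genes (863 of 23102, limma, adjusted p under 0.05). At an unadjusted p under 0.05 there were also 0 of 9, against 15.9% of all genes. Their median log2 difference was 0.09, beside 0.00 for all genes, with 6 above 0 and 3 below. None of the 9 had groups without overlap, against 2.67% of all genes, too small a share to read anything from 9 genes. The 9 genes gave 224 values under the alternative settings, none past the threshold (adjusted p between 0.0563 and 0.998).

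**Figure D3:**
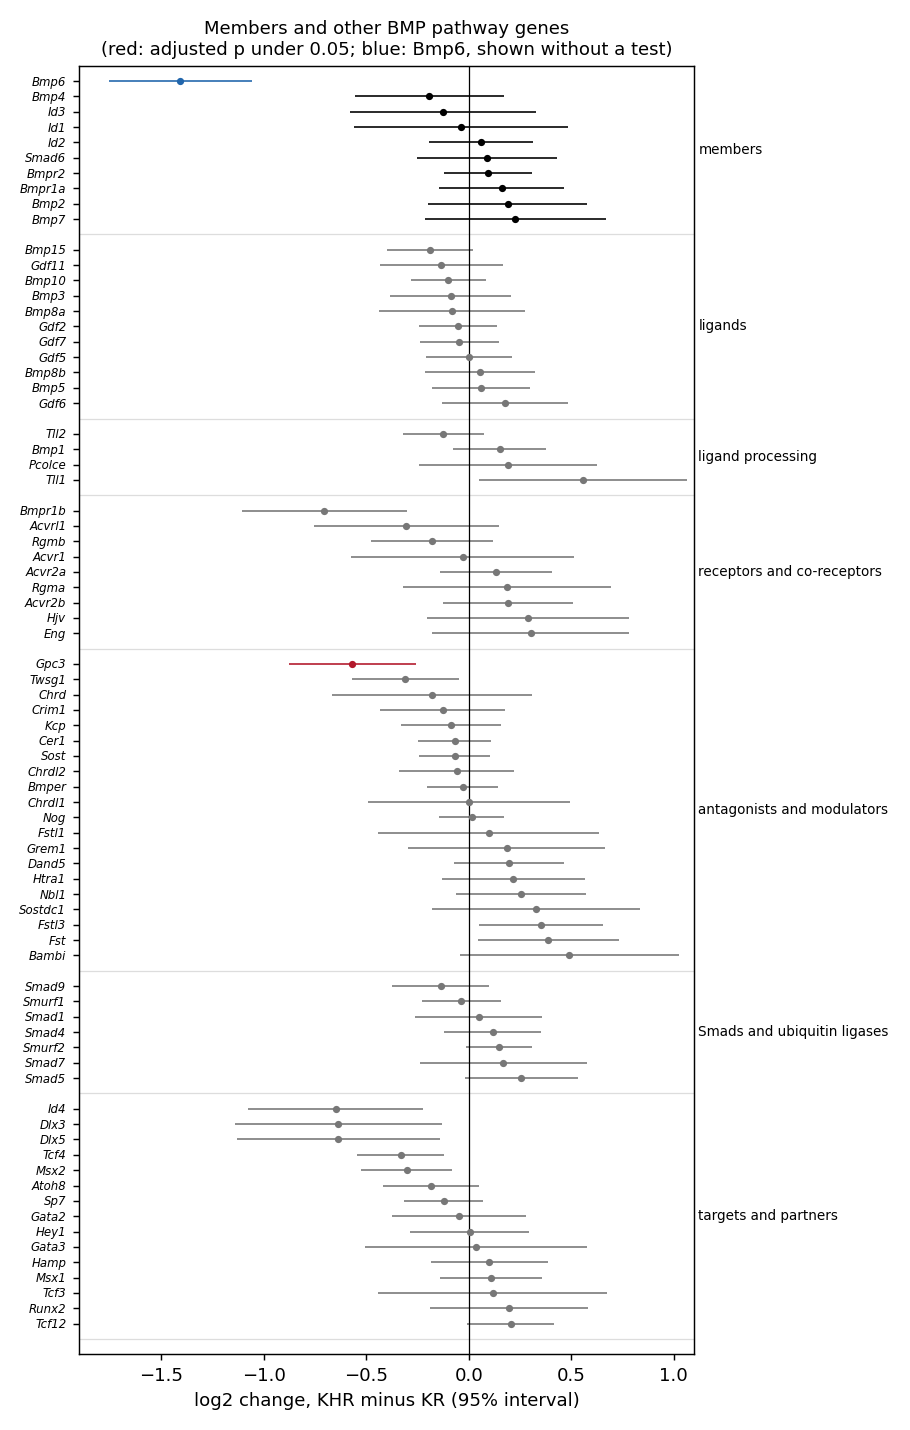
Log2 change (KHR minus KR) with its 95% interval for the 10 genes (black, Bmp6 in blue without a test) and 66 other BMP pathway genes by class (grey). Gpc3 alone of the genes tested is in red, past an adjusted p of 0.05; Bmp6 lies at -1.41 and the intervals of the 9 other listed genes include 0.

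The rest of the pathway was read from a list of 67 further genes, of which 66 were measured and 30 had a mean below the median level of all genes. Of the 66, 1 fell and none rose (limma), against 1.03% and 2.71% of all genes. At an unadjusted p under 0.05 there were 11 of 66, against 15.9% of all genes, and the median log2 difference was 0.00, as for all genes.

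The gene that fell was Gpc3, among 20 antagonists and modulators measured. It encodes glypican-3, a cell surface proteoglycan that binds growth factors. Its values spanned 6.14, 6.76 and 6.93 (lowest, median, highest) in KHR tumours and 6.94, 7.19 and 7.36 in KR tumours. The groups did not overlap, but the gap between them was under 0.01. The log2 change was -0.57 ± 0.14 (SE; adjusted p = 0.0449), and the call was lost on leaving out KHR 1, KHR 3, KHR 4, KR 1, KR 2, KR 4, KR 5 or KR 6 (adjusted p up to 0.0977). It was also lost with limma's trend and robust options (adjusted p = 0.0686) and with the Xist, muscle or suprabasal covariate (0.0767, 0.0698 and 0.0724), where the log2 difference was -0.59, -0.61 and -0.62. In all, the call held in 12 of 25 alternatives.

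Bmpr1b, the type I receptor ALK6, just missed the threshold among 9 receptors and co-receptors. It spanned 4.17, 4.34 and 4.61 in KHR tumours and 4.52, 4.95 and 5.88 in KR tumours. Every KHR value was under 4.98, where the median gene stood, and the groups overlapped slightly. The log2 difference was -0.70 ± 0.19 (SE; adjusted p = 0.0543); it passed in 7 of 23 alternatives (adjusted p from 0.0109 to 0.161), among them leaving out KR 6 (adjusted p = 0.0310) and the mean over probesets (-0.67, adjusted p = 0.0109). Of its 17 probesets, 16 were lower in KHR tumours.

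Among 15 targets and partners none passed, against 3.74% of all genes, and 8 had a negative sign. At an unadjusted p under 0.05 there were 5 of 15, all lower in KHR tumours (Tcf4, Id4, Msx2, Dlx3 and Dlx5), against 15.9% of all genes in either direction. The member with the smallest p was Tcf4, an E protein that Id proteins bind, at 8.86 ± 0.14 in KHR tumours and 9.19 ± 0.17 in KR tumours (SD, n = 6 each; difference -0.33 ± 0.10, SE; adjusted p = 0.0879; -0.39 and adjusted p = 0.0415 with quantile normalization). Id4, the remaining Id gene, named after its value was seen, differed by -0.65 ± 0.20 (adjusted p = 0.0986), with 6.44 ± 0.29 in KHR tumours and 7.09 ± 0.46 in KR tumours. In 5 of 6 KR tumours Id4 was above every KHR tumour, yet it missed the threshold in all 25 alternatives (adjusted p from 0.0598 to 0.241). Dlx3 and Dlx5, homeobox genes of epithelium and also named after their values were seen, differed by -0.64 ± 0.24 and -0.64 ± 0.23 (adjusted p = 0.180 and 0.170). Dlx3 passed on leaving out KHR 1, and Dlx5 with the suprabasal covariate. Msx2, a homeobox target of BMP named on the same basis, differed by -0.30 ± 0.10 (adjusted p = 0.142). Its means, 4.26 in KHR tumours and 4.57 in KR tumours, were below the median level of all genes. Hamp, the BMP6 target of the liver, stood below the median level of all genes at 4.11 ± 0.28 in KHR tumours and 4.01 ± 0.19 in KR tumours (difference 0.10 ± 0.13, adjusted p = 0.796).

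The 3 remaining classes held no gene past the threshold, against 3.74% of all genes, too small a share to read anything from. Each class is given by the gene with its smallest p. Of 11 further ligands, all below the median level of all genes, that was Bmp15, an oocyte ligand (-0.19 ± 0.10, adjusted p = 0.381). Of 4 genes of ligand processing it was Tll1, a protease that cleaves the BMP antagonist chordin (0.56 ± 0.24, adjusted p = 0.255). Of 7 Smads and their ubiquitin ligases it was Smad5, a receptor-activated Smad of the BMP branch (0.26 ± 0.13, adjusted p = 0.356).

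Whether Id and Smad6 levels followed Bmp6 between tumours of 1 genotype was tested within each group, a measure that the choice of genes had not used. No pooled correlation is given, because the groups form separate clusters for Bmp6. Among 8 relations, none passed after Benjamini-Hochberg adjustment (exact permutation test of 720 pairings, two-sided; lowest adjusted p = 0.539), and none had an unadjusted p under 0.05. The lowest adjusted p was 0.0667 when probesets were averaged and 0.0778 with median polish, both for Id3 in KR tumours.

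With the median of probesets, the relation of largest size was that of Id2 in KHR tumours, where r was negative (r = -0.76, exact permutation p = 0.0917; rho = -0.60, exact permutation p = 0.242; n = 6). Without the 2 tumours farthest from the median of Bmp6, KHR 4 and KHR 6, r was -0.89 over 4 tumours. In KR tumours Id2 had r = 0.01 (exact permutation p = 0.993; rho = -0.20, exact permutation p = 0.714). Id3 ran with Bmp6 in KR tumours (r = 0.67, exact permutation p = 0.135; rho = 0.66, exact permutation p = 0.175), and with the median of probesets r was -0.28 without KR 1 and KR 5. The relation was stronger with other summaries of the probesets, with r = 0.89 for their mean (exact permutation p = 0.00833, adjusted p = 0.0667; 0.80 without KR 1 and KR 4) and r = 0.91 for median polish (exact permutation p = 0.00972, adjusted p = 0.0778; 0.73 without KR 1 and KR 5). None of these passed after adjustment, and whether the relation rests on the farthest tumours depends on the summary. In KHR tumours Id3 had r = -0.05 (exact permutation p = 0.910; rho = 0.09, exact permutation p = 0.919).

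With the median of probesets Id1 had a negative r in both groups, -0.46 in KHR tumours (exact permutation p = 0.369; rho = -0.26, exact permutation p = 0.658) and -0.38 in KR tumours (exact permutation p = 0.457; rho = -0.43, exact permutation p = 0.419). Without the 2 farthest tumours of each group r was -0.73 and -0.65 over 4 tumours each. In KR tumours the sign turned positive when probesets were averaged (r = 0.23) or median-polished (r = 0.18), and in KHR tumours r was then -0.26 and -0.17. Smad6 had r = -0.40 in KHR tumours (exact permutation p = 0.425; rho = -0.54, exact permutation p = 0.297) and r = 0.01 in KR tumours (exact permutation p = 0.979; rho = 0.20, exact permutation p = 0.714), and 0.24 and -0.34 without the 2 farthest. With 6 tumours a group, only strong relations could pass.

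**Figure D4:**
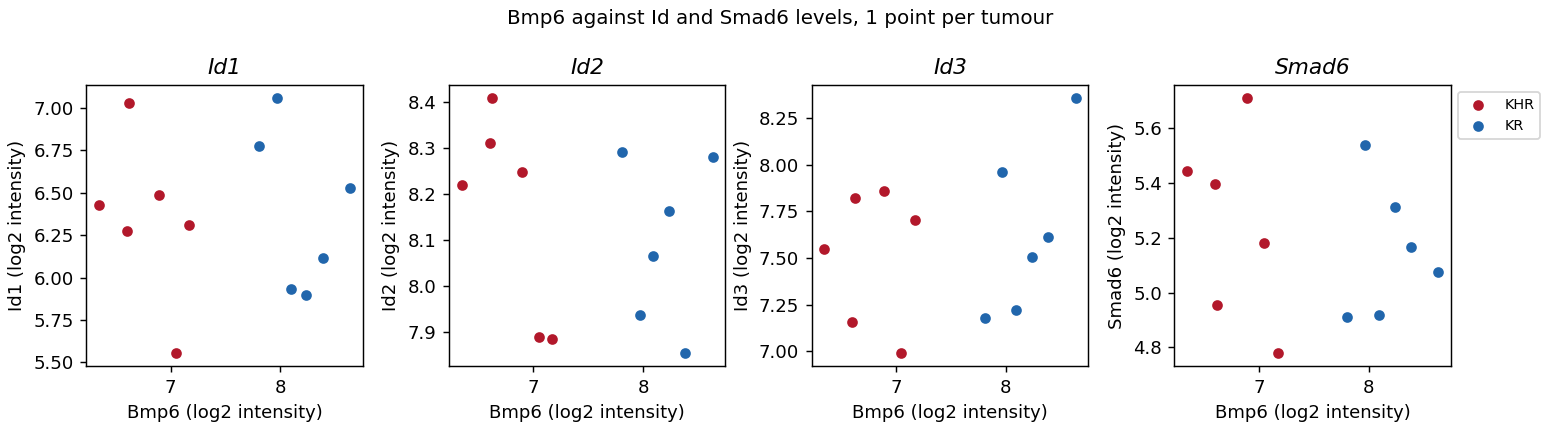
Log2 intensity of Id1, Id2, Id3 and Smad6 (y axes) against that of Bmp6 (x axes), 1 point per tumour, KHR in red and KR in blue. The 2 colours separate along the Bmp6 axis and overlap along every y axis.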

How the data were processed

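The deposited values were log2 intensities, 1 per exon-level probeset and array, for 269751 probesets. That their log base is 2 follows from their range and is not stated. The submitters' processing notes name Partek, with no version. How background was corrected and arrays normalized, and on which build, is not given in the sources used here. GEO's platform annotation gave the gene symbols, with old ones updated through RefSeq (GRCm38.p6): 233753 had 1 symbol, 5106 several and 30892 none. A gene's value was the median of its probesets with 1 symbol. No filter on dim genes was set.

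All 23102 genes were tested with limma 3.58.1 (lmFit, eBayes; R 4.3.3), two-sided, on all 12 arrays with no covariate, with Benjamini-Hochberg adjustment over all genes and a threshold of 0.05. Changes are KHR minus KR. The members, lists and alternatives were chosen with earlier results of these data known. Beyond the 10 members, the rule named each class's genes past the threshold, or else the 1 with the smallest p, and the 4 genes most like Bmp6, each Id gene and Smad6. Correlations used exact permutation. Figures used Python 3.11.15 and matplotlib 3.10.9.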

Additional observations from a re-analysis of the deposited data

How the results depend on the processing

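None of the 9 members tested passed under any of 25 alternatives. Bmp2 had a value in 24 of them, because the filter on dim genes left it out. Of these alternatives, 2 (the probesets above the median level, the suprabasal covariate) were added after seeing the data. Of 224 values 213 kept their sign, though settings that alter only the error estimate, the blocking or the set of genes return the main value. The exceptions were Id1 at 0.11 (mean over probesets), 0.075 (median polish), 0.16 (Xist covariate), 0.17 (muscle covariate) and -0.17 to 0.12 on leaving out 1 array, Id2 at -0.021 (quantile normalization), Id3 at 0.13 (muscle covariate) and -0.22 to 0.017 on leaving out 1 array, and Smad6 at -0.0027 to 0.18 on leaving out 1 array; the cause was not tested. The count over all genes was 1445 with the mean over probesets, 1422 with the probesets above the median level, 555 with the Xist covariate, 539 with the muscle covariate and 523 to 1085 on leaving out 1 array (lowest without KHR 4; 531 without KR 2), against 863. Of the genes past the threshold 72.4% were higher in KHR, against 56.8% with quantile normalization. In the pathway list 0 passed with the Xist or the muscle covariate, 2 with quantile normalization, array medians subtracted, genes with 3 or more probesets or array weights, 3 with the mean over probesets, 4 with the probesets above the median level (among them Bmpr1b, whose probesets met that filter only through KR and had to differ) and 0 to 2 on leaving out 1 array, against 1. The labels tie same-numbered tumours by nothing but the number, and correlations of their deviations lay between -0.00295 and 0.234. Whether such tumours share anything else is not known. With the replicate number as a block 925 genes passed, 0 of the 9 members among them. In the pathway list Bmpr1b then passed in place of Gpc3. None of the 8 relations passed with other summaries or scalings or with Spearman's rho; the lowest adjusted p was 0.0667 with the mean over probesets, 0.0778 with median polish and 0.567 to 0.793 otherwise.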

Other observations

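Among all pairs of the 10 genes, taken within each group, none of 90 correlations passed after adjustment (exact permutation test, two-sided, lowest adjusted p = 0.547; 8 had an unadjusted p under 0.05 for r and 3 for rho). The pairs named here were picked after their values were seen. Id3 had a high r with Bmp2 in both genotypes, 0.80 in KHR tumours (exact permutation p = 0.0389; rho = 0.49, exact permutation p = 0.356) and 0.82 in KR tumours (exact permutation p = 0.0444; rho = 0.77, exact permutation p = 0.103). It rested on the tumours farthest from the median of Bmp2, with r of -0.69 and 0.26 without the 2 farthest in each group. Id1 and Id3 ran together in KHR tumours (r = 0.81, exact permutation p = 0.0167; rho = 0.89, exact permutation p = 0.0333; r = 0.72 without the 2 farthest), and in KR tumours had r = 0.37 (exact permutation p = 0.464; rho = 0.26, exact permutation p = 0.658; r = 0.95 without the 2 farthest).

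As a description with no p, the genes outside the lists whose values, after subtraction of the group means, were most like those of a member over the 12 arrays were taken from 10554 candidates. For Bmp6 these were Fam98b (r = 0.91), Pik3c2b (0.87), Dip2a (0.83) and Lamtor5 (0.83). Their own differences between KHR and KR tumours were 0.13, -0.08, -0.17 and 0.03, none past the threshold. For Id1 they were Dusp3 (r = 0.93), Bola2 (0.89), Etv5 (0.88) and Afap1l1 (0.88), of which Afap1l1 itself rose in KHR tumours by 0.78 (adjusted p = 0.0204). The genes most like Id2 were Gfus (0.90), Spg21 (0.88), Zscan4c (0.88) and Isyna1 (0.85), those most like Id3 Gltp (0.95), Baiap2 (0.93), Shkbp1 (0.93) and Arhgef2 (0.92), and those most like Smad6 Arhgef7 (0.94), Pdpn (0.92), Mettl17 (0.90) and Mfn2 (0.87). The 12 points share their normalization, and its part in these values was not tested.

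The signal of the other cell type markers overlapped between the groups. The mean of 10 endothelial markers spanned 6.40 to 6.73 in KHR tumours and 6.36 to 7.14 in KR tumours, that of 9 fibroblast markers 7.94 to 8.81 and 7.69 to 8.93, and that of 8 macrophage markers 6.14 to 6.91 and 5.65 to 6.65. The 5 salivary gland markers measured averaged 4.76 ± 0.14 in KHR tumours and 4.69 ± 0.11 in KR tumours (SD, n = 6 each), below the median level of all genes. Among the 9 fibroblast markers Col1a2 fell by 0.80 on the log2 scale (adjusted p = 0.0220, limma). Short of the threshold, Col1a1, Col3a1 and Lum had a negative difference (-0.63, -0.44 and -0.15). The other 5 had a positive difference, also short of the threshold (Dcn 0.64, Pdgfra 0.58, Thy1 0.46, Fap 0.45 and Pdgfrb 0.24). None of the endothelial, macrophage, muscle and salivary markers passed. Of all genes 3.74% passed, too small a share to read anything from lists of this size.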
